A study of Mus musculus with 18 samples.

Results

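Small nucleolar RNA (snoRNA) genes were taken as the rows of the gene count table whose mouse symbol is Snora or Snord followed by a number, and the genes that carry snoRNAs in their introns were left out. This gave 114 of 27179 rows, 38 of box H/ACA (Snora) and 76 of box C/D (Snord). RNA was sequenced from the brains of 18 wild-type C57BL/6J mice of both sexes, aged 4 months, after 14 days of daily oral gavage. The vehicle group (5 mice) received the pH-adjusted solution with no glyphosate, and the other groups received glyphosate at 125 mg/kg (5 mice), 250 mg/kg (4 mice) or 500 mg/kg (4 mice) per day. The tissue was bulk brain, so a fall in the cells that make an RNA and a fall in the amount per cell cannot be told apart. The mice were separate animals and are named by their tags.

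snoRNAs are short RNAs that work in the nucleolus, where ribosomal RNA (rRNA) is made. Box C/D snoRNAs guide the methylation of rRNA with the protein fibrillarin, box H/ACA snoRNAs guide pseudouridylation with the protein dyskerin, and a few of either class are needed for the cutting of the rRNA precursor instead. Most vertebrate snoRNAs are released from introns of host genes, many of which encode ribosomal proteins or are noncoding Snhg transcripts. Some box C/D snoRNAs, Snord64 among them, lie in the imprinted Prader-Willi region and are known for their expression in brain.

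The sequences below are those of box C/D members with high counts or small p-values, of the tested box H/ACA member with the highest positive slope (Snora19), and of the near-identical pair Snora73a and Snora73b. They were read on the RNA strand at GENCODE M21 positions on GRCm38, and capitals mark the box elements that were searched: TGATGA (box C) and CTGA within the last 12 bases (box D) in Snord genes, and ACA set 3 bases before the 3′ end in Snora genes.
Snord17 (chr2:144265979-144266216, minus strand): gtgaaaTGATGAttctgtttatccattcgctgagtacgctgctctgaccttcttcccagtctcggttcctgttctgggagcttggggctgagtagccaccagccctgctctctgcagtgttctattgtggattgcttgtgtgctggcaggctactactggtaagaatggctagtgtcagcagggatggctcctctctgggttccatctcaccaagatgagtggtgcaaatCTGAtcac
Snord118 (chr11:69073427-69073561, plus strand): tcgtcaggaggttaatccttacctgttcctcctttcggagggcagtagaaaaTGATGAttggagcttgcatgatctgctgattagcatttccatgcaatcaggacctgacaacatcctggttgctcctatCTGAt
Snord15b (chr7:99479563-99479707, minus strand): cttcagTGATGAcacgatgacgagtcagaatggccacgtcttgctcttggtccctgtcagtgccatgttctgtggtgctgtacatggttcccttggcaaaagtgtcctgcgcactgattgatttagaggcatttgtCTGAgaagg
Snord64 (chr7:59978808-59978874, minus strand): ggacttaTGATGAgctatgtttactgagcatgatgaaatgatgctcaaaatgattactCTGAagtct
Snora19 (chr19:60774330-60774461, minus strand): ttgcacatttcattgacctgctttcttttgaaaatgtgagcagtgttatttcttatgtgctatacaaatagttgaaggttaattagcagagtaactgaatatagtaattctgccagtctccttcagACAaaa
TGATGA was present in 70.3% of 74 box C/D members and in 0% of 35 box H/ACA members with a sequence, against 1.85% of 32851 RefSeq promoter windows cut to 90 bases. CTGA lay in the last 12 bases of 82.4% of box C/D members, 2.86% of box H/ACA members and 4.59% of the windows. Both were present in 60.8% of box C/D members, 0% of box H/ACA members and 0.113% of the windows. Each box C/D gene shown has both, which many other members do not. ACA stood 3 bases before the end in 85.7% of box H/ACA members, 0% of box C/D members and 1.75% of the windows. In the next pair the capitals mark the 7 of 205 positions at which the genes differ (96.6% identity).
Snora73a (chr4:132352775-132352979, minus strand): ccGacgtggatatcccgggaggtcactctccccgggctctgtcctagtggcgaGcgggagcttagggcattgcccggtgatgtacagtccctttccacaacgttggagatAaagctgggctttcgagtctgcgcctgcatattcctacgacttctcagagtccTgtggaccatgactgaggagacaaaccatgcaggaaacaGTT
Snora73b (chr4:132352322-132352526, minus strand): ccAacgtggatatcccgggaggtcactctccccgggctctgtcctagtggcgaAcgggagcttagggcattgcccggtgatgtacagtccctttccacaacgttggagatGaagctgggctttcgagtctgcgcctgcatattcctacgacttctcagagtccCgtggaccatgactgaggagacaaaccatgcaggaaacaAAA
Snora73a had a mean of 48.7 counts per mouse, whereas Snora73b had 0 counts in every mouse. Most of the length of these genes is shared, so a read that does not span a differing base cannot be assigned to either, and how such reads were counted is not given in the sources used here.

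Few snoRNA genes had enough reads to be tested. Of the 114 genes, 20 passed the filter on low counts (9 box H/ACA and 11 box C/D), 85 had counts but did not pass it (26 and 59), and 9 had 0 counts in all mice. The 9 genes without counts were Snora24, Snora26, Snora73b, Snord1a, Snord7, Snord45c, Snord93, Snord116l1 and Snord123. For each, 0 counts among 138939584 in all mice allow up to 0.0216 CPM (counts per 1000000 counts of the library), from a limit of 3 counts that covers counting error only. This limit need not hold for Snora73b and Snord116l1, since reads shared with their near-identical or identical copies may not have been assigned to them. The genes below the filter had a median of 1.94 counts per mouse and at most 6.67 (Snora30), so most of the family could not be tested for a change. Whether the low counts came from depth, from the preparation of the RNA, from reads shared between genes or from the level in brain was not tested. All snoRNA genes together took between 0.00877% and 0.0232% of the counts of a mouse.

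**Figure D1:**
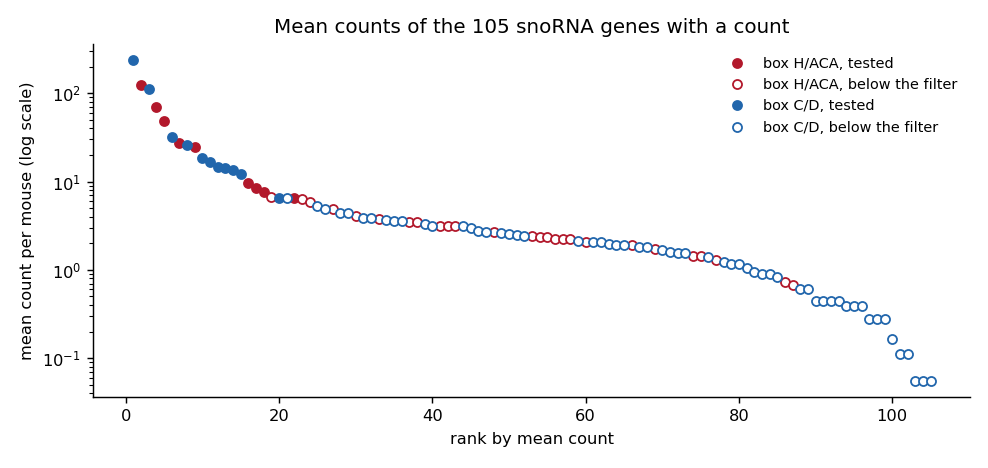
Mean count per mouse (log scale) of the 105 snoRNA genes with any count, ranked from highest to lowest. Filled points are the 20 tested genes and open points those below the filter, and 3 genes exceed 100 counts.

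The counts were concentrated in a few genes. Snord17 took 23.4% of all snoRNA counts, Snora74a 12.2%, Snord64 11.04%, Snora81 6.93% and Snora73a 4.81%, which made 58.3% for these 5 genes. Levels are given below as normalised CPM, with trimmed-mean scaling of the libraries, and levels of different genes are compared only per kilobase of RefSeq length. On that scale Snord64 was highest at 321 CPM per kb, followed by Snord17 (137), Snora74a (78.7) and Snora81 (55.7). RefSeq gives Snord64 as 46 bases and GENCODE as 67 bases, and with the GENCODE length it was still first of the 20 at 220 CPM per kb. Both lengths are shorter than a sequenced read, so a read counted for Snord64 can extend beyond it. In GENCODE, Snord64, Snora74a and Snora81 each lie within an exon of another gene, and reads counted for them can belong to that gene. The ranking is therefore one of counts per annotated length, and the share that came from the snoRNAs themselves was not tested. Snora19 was listed at 56 bases in RefSeq and 132 in GENCODE, and its level per kilobase was 15.6 or 6.61 accordingly.

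Between 3948096 and 11732885 counts were recorded per mouse. Neuronal, oligodendrocyte, astrocyte and microglial markers were detected in every group, as labelled brain tissue would have, while the summed level of 4 markers of liver, pancreas, heart and skin was between 2.19 and 8.68 CPM. The libraries G9 of the vehicle group and G4 of the 500 mg/kg group stood apart and had the lowest glutamatergic marker levels, with means of 4.74 and 5.02 log2(CPM + 1) over 6 genes against 6.67 or more in the other mice. G9 had the highest level of 9 of the 20 tested snoRNA genes. Values without G9, or without both mice, are given beside the main results and in the plot of dose slopes.

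Snora74a (also called U19, a guide for large-subunit rRNA pseudouridylation) was the only tested snoRNA gene called in the dose regression, though not in every fit. Its level was 22.4, 21.4, 27.3, 13.4 and 20.5 CPM in the vehicle mice (G15, G18, G9, G1 and G5) and 17.96, 12.4, 14.1, 15.2 and 25.5 CPM at 125 mg/kg. It was 12.1, 19.1, 11.8 and 11.7 CPM at 250 mg/kg and 12.2, 5.87, 7.62 and 10.2 CPM at 500 mg/kg. The 500 mg/kg mice were all lower than the lowest vehicle mouse, the 125 mg/kg mice overlapped with vehicle only, and the 250 mg/kg mice overlapped with both. From vehicle to the highest dose, group means were 20.99 ± 4.98 (SD, n = 5), 17.0 ± 5.12 (n = 5), 13.7 ± 3.602 (n = 4) and 8.97 ± 2.79 CPM (n = 4), and the mean at 500 mg/kg was 42.8% of that of vehicle. The dose slope, the fitted log2 change from 0 to 500 mg/kg with sex in the model, was -1.22 (SE 0.243; adjusted p = 0.0361 over 15863 genes, edgeR quasi-likelihood test).

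Snora74a was the only one of the 20 tested snoRNA genes called in the dose regression at an adjusted p under 0.05, and no snoRNA gene rose. Among all genes tested, 0.29% were called in either direction and 0.0441% as falling. DESeq2 called it as well (slope -1.23, adjusted p = 0.000961), where 1.28% of all genes were called. Over the 6 other edgeR and limma-voom fits that changed the scaling, the filter, the sex covariate or the tool, the adjusted p lay between 0.0264 and 0.0452. With dose as a rank it was above the threshold (adjusted p = 0.0517, edgeR). The edgeR call was close to the threshold. Leaving out 1 mouse at a time kept the slope between -1.43 and -1.05, and the adjusted p stayed under 0.05 in 8 of 18 such fits. It was above the threshold without G5 (0.0845) or G15 (0.0881) of the vehicle group, without G25 (0.0548), G34 (0.0515) or G40 (0.0505) at 125 mg/kg, and without G71 (0.051) at 250 mg/kg. It was also above it without each of the mice at 500 mg/kg, G4 (0.128), G79 (0.0582), G87 (0.124) and G90 (0.056). Without both G4 and G9 the slope was -1.35 (adjusted p = 0.132, edgeR).

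A second number in the mouse tags, whose meaning the labels do not give, took 6 values, of which 4 occurred in 1 dose group only. With it as a block beside sex the Snora74a slope was -1.698 (adjusted p = 0.9999, edgeR), and 0 of all genes were called. Just 1 value was shared by vehicle and 500 mg/kg mice, and within it Snora74a was at 22.4 and 27.3 CPM in the vehicle females G15 and G9 and at 7.62 and 10.2 CPM in the treated males G87 and G90.

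**Figure D2:**
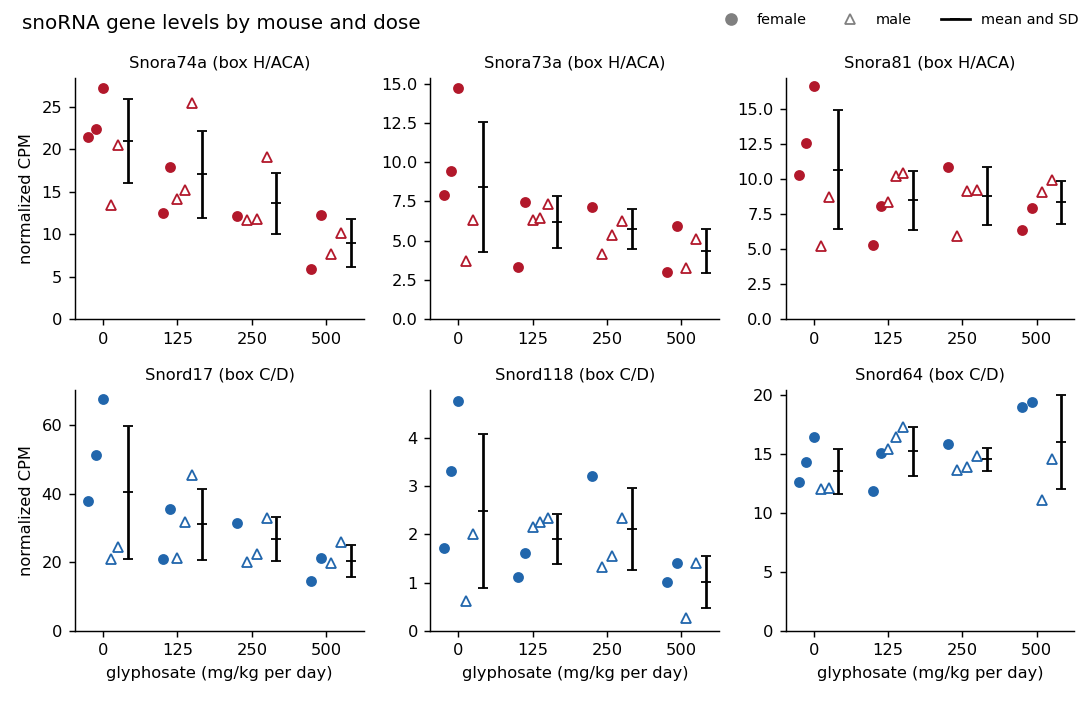
Normalised CPM of 6 snoRNA genes in each mouse by daily dose, with females as filled circles, males as open triangles, and the mean and SD of each group beside them. Snora74a at 500 mg/kg lies between 5.87 and 12.2 CPM, below all vehicle mice, while in the other panels the 500 mg/kg and vehicle mice overlap.

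Unadjusted p-values under 0.05 for a negative slope were found for 4 of the 20 genes (Snora74a, Snord17, Snora73a and Snord118), against 5.28% of all genes tested. Slopes were negative for 17 of the 20 genes, against 48.8% of all genes tested, and the 20 genes are not independent of one another. The median slope was -0.24 over the 9 box H/ACA genes and -0.51 over the 11 box C/D genes, against 0.01 over all genes. Without G9, slopes were negative for 13 of 19 tested genes, and without G4 and G9 for 16 of 23, with the filter applied again each time, so that the genes tested changed too. Without G4 alone or G87 alone it was also 16 of 23.

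**Figure D3:**
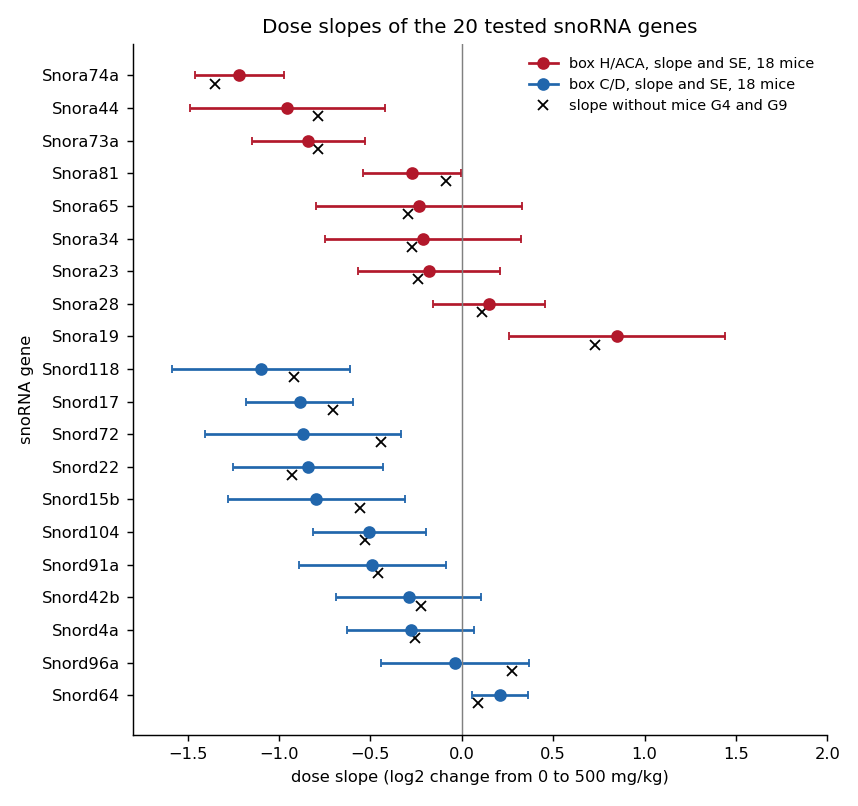
Dose slope (log2 change from 0 to 500 mg/kg) and SE of each tested snoRNA gene over 18 mice, box H/ACA above and box C/D below, with crosses for the slope without mice G4 and G9. Most points lie left of 0, Snora74a at -1.22 has a narrow error, and Snord96a crosses 0 when the 2 mice are left out.

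Among the genes needed for rRNA cutting, Snora73a (U17) had 7.93, 9.42, 14.7, 3.70 and 6.31 CPM in the vehicle mice in the order above and 5.91, 3.02, 3.29 and 5.10 CPM at 500 mg/kg (G4, G79, G87 and G90). The highest value was that of G9, and the vehicle male G1 lay within the range of the 500 mg/kg mice. Its slope was -0.84 (SE 0.31, unadjusted p = 0.0136, adjusted p = 0.254, edgeR), and -0.64 without G9. Snord118 (U8), which acts in large-subunit rRNA maturation, had 3.31, 1.71, 4.77, 0.616 and 1.999 CPM in vehicle mice and 1.41, 1.01, 0.263 and 1.40 CPM at 500 mg/kg. G1 was again among the 500 mg/kg mice, and the counts behind these values were small, with a mean of 14.6 per mouse. Its slope was -1.10 (SE 0.486, adjusted p = 0.344, edgeR), and -0.85 without G9. Snord22 (U22), which acts in small-subunit rRNA maturation, averaged 3.81 ± 2.01 CPM (SD, n = 5) in vehicle mice and 2.13 ± 0.903 CPM (n = 4) in the 500 mg/kg mice. The slope was -0.84 (SE 0.408, adjusted p = 0.384, edgeR).

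Snord17, the box C/D gene with the most counts, had a higher level in each vehicle female than in the vehicle males. Its level was 51.2, 37.8 and 67.6 CPM in the vehicle females G15, G18 and G9, and 20.9 and 24.5 CPM in the vehicle males G1 and G5. At 500 mg/kg it was 21.3 and 14.4 CPM in the females G4 and G79, and 19.8 and 26.0 CPM in the males G87 and G90. The females of the 2 groups (3 and 2 mice) did not overlap and the males did. The share of all genes with this pattern was not taken. Over all mice the Snord17 slope was -0.89 (SE 0.295, unadjusted p = 0.00703, adjusted p = 0.207, edgeR), and without G4 and G9 it was -0.71 (adjusted p = 0.395).

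Of the guides for rRNA modification, Snord15b (U15B, for large-subunit methylation) had a slope of -0.80 (SE 0.483, adjusted p = 0.497, edgeR). Its 250 mg/kg mice ranged from 0.74 CPM in G49 to 7.11 CPM in G64, and G9 of the vehicle group was higher still at 9.86 CPM. Snora81 had 10.7 ± 4.26 CPM in vehicle (SD, n = 5) and 8.34 ± 1.54 CPM at 500 mg/kg (n = 4), and its slope was -0.27 (SE 0.267, adjusted p = 0.705, edgeR). The slopes of Snora44 (-0.96), Snord72 (-0.87), Snord104 (-0.51), Snord91a (-0.49), Snord42b (-0.29), Snord4a (-0.28), Snora65 (-0.24), Snora34 (-0.21), Snora23 (-0.18) and Snord96a (-0.04) were all within 2 SE of 0.

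Positive slopes were found for 3 genes. From vehicle to the highest dose, Snora19 averaged 0.736 ± 0.369, 0.507 ± 0.397, 1.25 ± 0.623 and 1.118 ± 0.41 CPM (SD, n = 5, 5, 4 and 4). The groups overlapped, 1 mouse had 0 counts, and the slope was 0.85 (SE 0.593, adjusted p = 0.562, edgeR). Snora28 had a slope of 0.15 (SE 0.308, adjusted p = 0.874, edgeR).

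Snord64, the tested member of the imprinted Prader-Willi region, did not share the negative slope. Its level was 14.3, 16.4, 12.6, 12.02 and 12.1 CPM in vehicle mice and 19.4, 18.9, 11.04 and 14.5 CPM at 500 mg/kg. Both 500 mg/kg females lay above all vehicle mice and the male G87 lay below them. The slope was 0.21 (SE 0.152, adjusted p = 0.585, edgeR), which with 2 SE either side leaves room for a change in either direction. Snord116l2 of the same region had 8 counts in all mice together and its identical copy Snord116l1 (100% over 94 bases) had 0, so neither could be tested.

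In the comparison of the 4 groups without an order of dose, 0 of 20 snoRNA genes were called by edgeR, against 0.0441% of all genes. At an unadjusted p under 0.05 it was 1 gene (Snora74a, adjusted p = 0.153), against 15% of all genes. DESeq2 called 1, Snora74a (adjusted p = 0.0102), where it called 3.16% of all genes. Against vehicle, edgeR called 0 of 20 snoRNA genes at 125 mg/kg, where 0% of all genes were called. At an unadjusted p under 0.05 it was 0 of 20, against 1773 of all 15863 genes tested. At 250 mg/kg edgeR again called 0 where 0% of all genes were called. Of the 20 genes, 1 (Snora74a) had an unadjusted p under 0.05, against 596 of all 15863 genes tested. DESeq2 called 0 snoRNA genes at either dose. The share of all genes that it called at these doses was not taken, so this 0 is not read further.

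At 500 mg/kg edgeR called 0 of 20 snoRNA genes, against 0.0189% of all genes. At an unadjusted p under 0.05, 4 of the 20 were lower than in vehicle (Snora74a, Snord17, Snora73a and Snord118), against 4.07% of all genes. Snora74a was lower by a log2 fold change of -1.21 (SE 0.264, adjusted p = 0.105, edgeR), and DESeq2, which called 1.05% of all genes here, called it (-1.22, adjusted p = 0.00334). It was the only tested snoRNA gene with no overlap between the 500 mg/kg and vehicle mice, a pattern in the lower direction held by 0.933% of all genes. Its log2 fold change was -0.29 (SE 0.242) at 125 mg/kg and -0.60 (SE 0.269) at 250 mg/kg. The median log2 fold change over the 20 genes was -0.23, -0.28 and -0.43 at 125, 250 and 500 mg/kg, and the 3 comparisons share the vehicle mice.

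The dose slope did not pass the test of a difference between the sexes for any of the 20 genes (0 called by edgeR, 0% of all genes called). Snord17 had an unadjusted p of 0.0301 (adjusted p = 0.9999, edgeR), with a slope of -1.46 in females and -0.24 in males. It was the only 1 of the 20 with an unadjusted p under 0.05, against 262 of all 15863 genes tested. Snora74a had slopes of -1.36 and -1.05 (unadjusted p for the difference 0.539). In the vehicle group all 3 females lay above both males for 11 of 20 snoRNA genes, against 16.4% of all genes tested. In Snord17 the means were 52.2 CPM for the females and 22.7 CPM for the males, in Snora23 5.47 and 1.33 CPM, and in Snord15b 7.50 and 2.72 CPM. All females lay above all males for 0 of 20 genes at 125 mg/kg (2 females and 3 males), against 10.4% of all genes. The count was 11 of 20 at 250 mg/kg (1 female and 3 males), against 32.3%, and 7 of 20 at 500 mg/kg (2 and 2), against 10.9%. In the other direction, all females lay below all males for 1, 6, 2 and 3 of the 20 genes from vehicle to the highest dose. The share of all genes in that direction was not taken, so these counts cannot be read as a result about the snoRNA genes. The vehicle males were G1 and G5, and G1 had the lowest level of 4 of the 20 genes among all mice. Within the vehicle, 125 mg/kg and 500 mg/kg groups, females and males shared no value of the second number in the mouse tags. Sex and that number cannot be told apart in these groups.

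Summed over all 38 box H/ACA genes, levels were 61.96 ± 17.01, 51.96 ± 10.3, 49.3 ± 6.52 and 42.2 ± 5.88 CPM from vehicle to the highest dose (SD, n = 5, 5, 4 and 4). Without Snora74a the sums were 41.0 ± 12.5, 34.9 ± 6.25, 35.6 ± 5.55 and 33.3 ± 3.29 CPM. Summed over all 76 box C/D genes, levels were 92.1 ± 26.99, 78.8 ± 15.9, 78.02 ± 11.9 and 66.03 ± 7.29 CPM, and without Snord17 they were 51.7 ± 8.57, 47.8 ± 7.95, 51.2 ± 5.48 and 45.6 ± 4.47 CPM. The ranges of vehicle and 500 mg/kg mice overlapped in all 4 sums. Without G9, in a comparison chosen after seeing the data, the vehicle means were 55.4 ± 9.93 and 82.5 ± 19.1 CPM for the full box H/ACA and box C/D sums (SD, n = 4). The gap between vehicle and 500 mg/kg then narrowed from 19.7 to 13.2 CPM and from 26.0 to 16.5 CPM. Without Snora74a it narrowed from 7.71 to 2.72 CPM and without Snord17 from 6.02 to 3.28 CPM. The genes below the filter summed to 24.3 ± 2.40, 22.3 ± 5.24, 28.2 ± 2.71 and 23.9 ± 1.87 CPM from vehicle to the highest dose, so the 250 mg/kg mean was the highest of the 4.

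**Figure D4:**
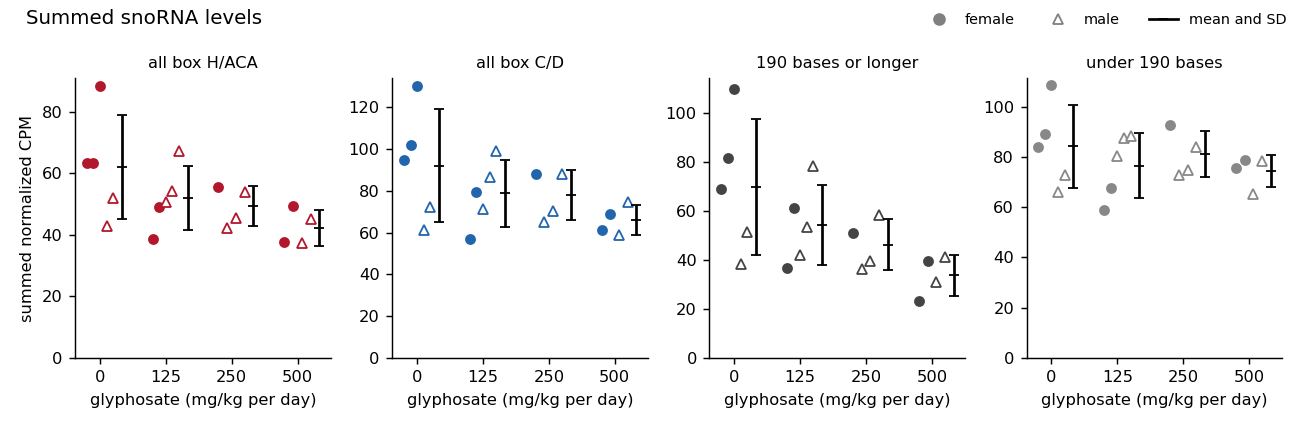
Summed normalised CPM of all box H/ACA genes, all box C/D genes, the genes of 190 bases or longer and the shorter genes in each mouse by daily dose, with females as filled circles, males as open triangles, and the group mean and SD. The vehicle female G9 is the highest mouse in every panel, and the long genes have means of 69.8 CPM in vehicle and 33.7 CPM at 500 mg/kg.

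The 3 tested genes of 190 bases or longer, Snora74a, Snord17 and Snora73a, were also 3 of the 5 with 40 or more counts per mouse. Their slopes ran from -1.22 to -0.84, whereas those of the 17 shorter tested genes ran from -1.10 to 0.85 with a median of -0.28. The long genes summed to 69.8 ± 27.7 CPM in vehicle (SD, n = 5) and 33.7 ± 8.31 CPM at 500 mg/kg (n = 4), and the shorter ones to 84.2 ± 16.5 and 74.6 ± 6.35 CPM. Without G9 the vehicle means were 59.9 ± 19.1 and 78.1 ± 10.6 CPM (n = 4). This division was made after the slopes were known and was not tested. The median level per kilobase was 54.7 CPM for the 4 genes over 190 bases and 17.1 CPM for the 3 of 150 to 190 bases, and it lay between 1.90 and 5.23 CPM in each shorter length class.

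The genes that hold the snoRNAs were looked at next, because an intronic snoRNA is made from the transcript of its host. GENCODE M21 placed 107 of 111 matched snoRNA genes within a host on the same strand, 54 of them in introns and 53 on or in an annotated exon. Of the 71 hosts tested, edgeR called 0, against 0.29% of all genes. At an unadjusted p under 0.05, 1 had a positive slope and 5 a negative one, against 7.91% and 5.28% of all genes. DESeq2, which called 1.28% of all genes, called 1, the ribosomal protein gene Rps13 (slope -0.55, adjusted p = 0.0294). The median slope of the hosts was -0.08. Of 16 tested noncoding hosts chosen by name, edgeR called 0, against 0.29% of all genes. An unadjusted p under 0.05 was found for 1 of them (Snhg16, slope 0.66), against 13.2% of all genes.

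Snhg4, whose RefSeq span holds Snora74a, had 4.62 CPM in vehicle and 4.90 CPM at 500 mg/kg, with a slope of 0.12 (SE 0.238, adjusted p = 0.869, edgeR) against -1.22 for Snora74a. The strand of Snhg4 is not given in the RefSeq positions used. On the same strand, GENCODE places Snora74a within an exon of AC121821.1 and in an intron of Gm28285, and neither name had a RefSeq match. The log2 ratio of Snora74a to Snhg4 (0.5 CPM added to each) had a slope of -1.30, and -1.29 without G4 or without G9. Snx5, which holds Snord17 in an intron, had a slope of -0.05 (SE 0.122). Rcc1, which holds Snora73a, had a slope of -0.03 (SE 0.215), and Snhg3, whose exon overlaps Snora73a, was below the filter. Snhg1, with Snord22 in an exon, had a slope of 0.02 (SE 0.297). By contrast, Snhg12, with Snora44 in an exon, had -0.50 (SE 0.276) beside -0.96 for the snoRNA gene. Snhg14, the long transcript over the Prader-Willi region, had 0.20 (SE 0.156) beside 0.21 for Snord64. Snord64 lies within an exon of Gm38393 in GENCODE. Reads in the exonic cases, Snora74a and Snord64 among them, can belong to either gene, and the strand setting of the counting is not given in the sources used here. The differences between the slopes of a snoRNA gene and its host were not tested.

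**Figure D5:**
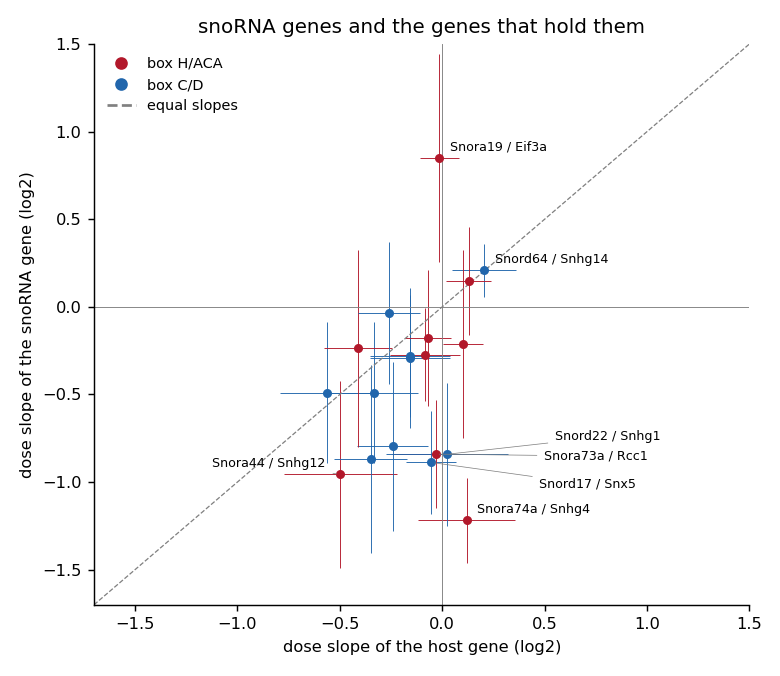
Dose slope (log2) of each tested snoRNA gene against that of the gene that holds it, with SE on both axes and the line of equal slopes. Snora74a lies at -1.22 over a host slope of 0.12, and Snord64 lies on the line beside Snhg14.

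The proteins that bind and assemble snoRNAs did not pass the test. Of 26 tested genes edgeR called 0, against 0.29% of all genes, 0 had an unadjusted p under 0.05, against 13.2%, DESeq2 called 0, against 1.28%, and the median slope was -0.07. In the box H/ACA core, Dkc1 (dyskerin, the pseudouridine synthase) had a slope of -0.30 (SE 0.152), Nhp2 -0.25 (SE 0.234), Gar1 -0.17 (SE 0.425) and Nop10 -0.06 (SE 0.239). In the box C/D core, Fbl (fibrillarin, the methyltransferase) had -0.48 (SE 0.316), Nop58 -0.41 (SE 0.203), Snu13 -0.05 (SE 0.161) and Nop56 0.12 (SE 0.145). The slopes of the assembly and maturation factors lay between -0.43 and 0.32.

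Other short structural RNAs were set beside the snoRNA genes. Of 19 tested, 18 had negative slopes (median -0.61), against 48.8% of all genes, and 6 of them had an unadjusted p under 0.05, against 5.28%. As falling, edgeR called 1, against 0.0441% of all genes, and this was Rmrp, the RNA of RNase MRP (slope -0.87, SE 0.172, adjusted p = 0.0361). The U3 gene Rnu3b1, a box C/D RNA whose symbol kept it out of the family here, had a slope of -0.55 (SE 0.312, adjusted p = 0.46). The summed level of this list was highest in G9, the mouse that was also highest for 9 snoRNA genes. Among cell markers, the 4 oligodendrocyte genes had a summed level of 3345 to 5798 CPM in vehicle mice and 4784 to 13570 CPM at 500 mg/kg. The 6 glutamatergic genes had 527.8 to 3955 CPM and 624.4 to 2341 CPM, and the 3 choroid plexus genes 5.85 to 1087 CPM, highest in G9, and 18.9 to 235 CPM. No marker of these 3 lists was at 0 in either group, and their part in the snoRNA levels was not tested.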

How the data were processed

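RNA of 18 mouse brains had been isolated with the RNeasy Kit. It was prepared as ribosomal RNA-depleted, stranded total RNA libraries (250 ng input) and sequenced as paired 100-base reads. The deposited values are raw gene counts, which the authors made with STAR 2.7.5b on GRCm38 and featureCounts. The gene annotation, strand setting and treatment of multi-mapping reads are not given in the sources used here. Counts were tested in R 4.3.3 with the edgeR 4.0.16 quasi-likelihood test, with TMM scaling and a filter on low counts by dose group (minimum count 10), which left 15863 genes over which p-values were adjusted (Benjamini-Hochberg, two-sided, threshold 0.05). Dose was a number divided by 500 mg/kg or a group, and sex was a covariate. Symbols came from RefSeq, which matched 25275 of 27179 rows, and positions, hosts and sequences from GENCODE M21, which matched 111 of the 114 snoRNA genes. The named genes were the snoRNA genes called in any comparison, those with the smallest dose p or the highest level per kilobase in each class, tested members of imprinted clusters, the core snoRNP proteins and the hosts, which took in all 20 tested genes. Alternatives were DESeq2 1.42.0, limma-voom (limma 3.58.1), other scalings, filters and covariates, and leaving out mice. Scripts were tested on simulated data. The members and lists were chosen with earlier results of these data known. Intervals and floors cover counting error only.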

Additional observations from a re-analysis of the deposited data

Results flagged for a closer look

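In 88 groups of 4 or 5 mice (20 snoRNA genes and 2 summed levels in 4 groups), 3 held a mouse that stood far from the others by Dixon's ratio, and chance gives about 1 in 20. Snora74a was 19.1 CPM in G64 at 250 mg/kg against 11.7 to 12.1 CPM in the other mice of its group. Snora73a was 3.34 CPM in G29 at 125 mg/kg against 6.29 to 7.48 CPM. Snora23 was 1.84 CPM in G66 at 250 mg/kg against 2.65 to 2.81 CPM.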

How the results depend on the processing

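The count of snoRNA genes called in the dose regression was 1 (Snora74a) in all 18 mice, and 0 or 1 when 1 mouse was left out, with 8 of 18 fits keeping the call. It was also 1, Snora74a, with DESeq2, DESeq2 size factors, no filter, 10 counts in every mouse, a mean count of 10, no sex covariate and limma-voom. It was 0 with dose as a rank, 0 without the 500 mg/kg mice, 0 with the tag number as a block beside sex, 0 without G4 and G9, and, in fits chosen after seeing the data, 0 in females only and 0 in males only, which hold fewer mice. Of the 6 tag numbers, 4 occurred in 1 dose group only, and with them as a block 0 of all genes were called. DESeq2 called 1 snoRNA gene among the 4 groups, 1 at 500 mg/kg and 1 host gene, where edgeR called 0. The median slope of box C/D genes was -0.076 with no filter on low counts, since the genes with few counts then entered it. Snora74a kept its direction in all of its 31 alternative slopes but lost the call in 16 of them, and the other tested genes were not called in the main fit. Of 591 alternative slopes of the 20 genes, 552 kept direction and side of the threshold and 23 changed sign, none of them of Snora74a. Without the 500 mg/kg mice these were 0.22 for Snora44, -0.18 for Snora28 and 0.38 for Snord96a. With the tag number as a block they were 1.30 for Snord91a, 0.49 for Snord42b, -0.039 for Snora28, 0.14 for Snora65 and 0.23 for Snord96a. In males only they were 0.011 for Snord15b, -0.10 for Snord64, 0.24 for Snora81, -0.25 for Snora28, 0.26 for Snora23 and 0.18 for Snord96a, and in females only 0.49 for Snora65. Snord96a was at 0.016 with limma-voom and 0.27 without G4 and G9. When 1 mouse was left out, slopes ranged from -0.40 to 0.0017 for Snora23, from -0.40 to 0.14 for Snora65, from -0.53 to 0.063 for Snora34 and from -0.11 to 0.16 for Snord96a. The causes were not tested. The other 94 of the 114 snoRNA genes did not pass the filter on low counts and were not tested, and the cause of their low counts was not tested.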
